A study of Homo sapiens with 6 samples.

Results

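The replication-dependent histone genes were taken as the genes of the deposited count table whose symbols follow the naming of the histone clusters. These are the older names HIST1H to HIST4H with class and letter, or the current names H1-1 to H1-6, H2AC, H2BC, H3C and H4C with a number. Of 36 such genes in the table, 4 (H2AC1, H2AC7, H2AC25 and H2BC1) had no count in any library. The remaining 32 were the genes described here, of 57905 genes in the table and 30884 with at least 1 count. They comprised 6 linker histone genes (H1), 6 H2A, 10 H2B, 5 H3 and 5 H4 genes. By position, 21 lay in the HIST1 cluster on chromosome 6, 9 in HIST2 and 1 (H2BC26) in HIST3, both on chromosome 1, and 1 (H4C16) on chromosome 12 (HIST4). HIST2H2BC is annotated as a pseudogene. A further 31 genes with such names in the annotation used here have identifiers absent from the count table and were not analysed here, among them most H3 and H4 genes of the HIST1 cluster.

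The study asked how inhibition of cyclin-dependent kinase 7 (CDK7) affects B-cell acute lymphocytic leukemia. NALM6, an established cell line of B-cell precursor leukemia, was treated for 24 h with DMSO, the solvent control, or with 500 nM THZ1, a covalent CDK7 inhibitor, and 3 RNA-SEQ libraries per treatment were analysed. These were libraries of a single cell line at 1 dose and 1 time, and nothing in the labels said whether the 3 came from separate cultures, so p-values measure the spread between these libraries only, which may be technical.

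Histone proteins package DNA, with H2A, H2B, H3 and H4 forming the nucleosome core and H1 binding the linker DNA. Cells make most of them in S phase from clustered genes without introns, whose mRNAs end in a stem-loop and not in a poly(A) tail. The stem-loop is bound by SLBP, and the mRNAs are degraded when DNA synthesis stops. Since libraries prepared by selection for poly(A) hold few such mRNAs, the way RNA was selected bears on their level, and neither the labels nor the methods state it.

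The stem-loops of 5 members are shown because they carry the feature that defines the gene family, and because these members are the most abundant after THZ1 treatment, or, in H2AC20, the exception described further on. The sequences were read from GRCh37 on the strand of the gene, 5′ to 3′, with the 16 bases of the stem-loop in capitals and 5 bases on either side in lower case.
H2AC11, chr6:27101294-27101309: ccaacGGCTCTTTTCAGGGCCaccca
H2BC21, chr1:149857738-149857753: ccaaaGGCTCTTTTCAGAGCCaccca
H2BC12, chr6:27114145-27114160: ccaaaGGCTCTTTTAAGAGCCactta
H1-2, chr6:26055972-26055987: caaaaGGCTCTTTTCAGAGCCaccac
H2AC20, chr1:149858941-149858956: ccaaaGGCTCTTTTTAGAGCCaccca

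All 31 members with an annotated stop codon held a histone stem-loop within 150 bases after it, at a distance of 22 to 67 bases. In the same window it was found after 72 of 20047 protein-coding genes (0.359%), and 67 of these 72 follow the histone cluster naming. Only 5 versions of the 16 bases occurred among the members. The version of H2BC21 and H1-2 was shared by 17 members of the H1, H2A, H2B and H3 classes, and the version of H2BC12 by 7. All 5 H4 genes held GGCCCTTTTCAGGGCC, which no member of another class had. H2AC11 and H2AC20 each held a version found in no other member. Among 13 genes of replication-independent histone variants, H2AX alone held a stem-loop, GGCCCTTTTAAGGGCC.

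Several H2A and H2B genes lie head to head and share the stretch between their starts. There were 4 such pairs with both genes among the members and less than 500 bases between them. The stretches of 2 pairs are shown because their genes gave the highest levels after THZ1 treatment and because the partners behaved alike in one and differently in the other. They are written on the plus strand of GRCh37 from the start of the H2B gene, which runs leftward, to the start of the H2A gene, which runs rightward. Capitals mark the octamer ATTTGCAT, the CCAAT box and the TATAAA box, each on either strand, with adjoining or overlapping matches merged.
H2BC21 and H2AC20, chr1:149858233-149858467: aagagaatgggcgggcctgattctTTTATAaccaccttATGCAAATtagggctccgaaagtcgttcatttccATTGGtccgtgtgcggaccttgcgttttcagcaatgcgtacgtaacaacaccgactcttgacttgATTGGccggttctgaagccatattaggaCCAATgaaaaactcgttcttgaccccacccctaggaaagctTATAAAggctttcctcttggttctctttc
H2BC11 and H2AC11, chr6:27100575-27100821: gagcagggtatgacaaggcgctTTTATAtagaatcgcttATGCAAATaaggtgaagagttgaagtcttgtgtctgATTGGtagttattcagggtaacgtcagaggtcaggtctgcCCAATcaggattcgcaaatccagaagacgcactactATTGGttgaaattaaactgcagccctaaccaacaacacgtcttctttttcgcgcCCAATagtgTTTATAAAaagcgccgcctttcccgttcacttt

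The octamer is bound by OCT1, encoded by POU2F1, and is known from H2B promoters. In RefSeq promoter windows of GRCh38, from 250 bases before to 50 bases after the start, 27 members had an entry. The octamer, searched on both strands, was in 10 of these 27, against 1.77% of all 35113 windows. It was in 5 of 9 H2B and 4 of 5 H2A windows, and in none of the 6 H1 and 3 H4 windows. Windows of head-to-head partners overlap, so the same match can count for both genes. CCAAT was in 24 of 27 against 34.6% of all windows, and TATAAA in 19 of 27 against 11.5%. These matches describe the letters of the windows and not binding.

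THZ1-treated cells had far more RNA of the histone genes, relative to all counts, than DMSO-treated cells. Levels were computed as CPM, the counts scaled to a common library size with TMM factors, from totals of 11015480 to 11164840 counts in the DMSO libraries and 7876402 to 8314306 in the THZ1 libraries. Summed over the 32 members, the DMSO libraries held 244, 222 and 231 counts, and the THZ1 libraries held 5530, 5853 and 5897. As CPM the sum was 20.2, 18.2 and 19.5 in the DMSO libraries and 727, 810 and 788 in the THZ1 libraries. The mean sum rose from 19.3 ± 1.00 to 775 ± 43.0 CPM (SD, n = 3), a 40.2-fold difference. Over single pairs of libraries the fold ran from 36.0 to 44.5. In bulk RNA, fewer cells of a kind and less RNA per cell cannot be told apart.

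**Figure D1:**
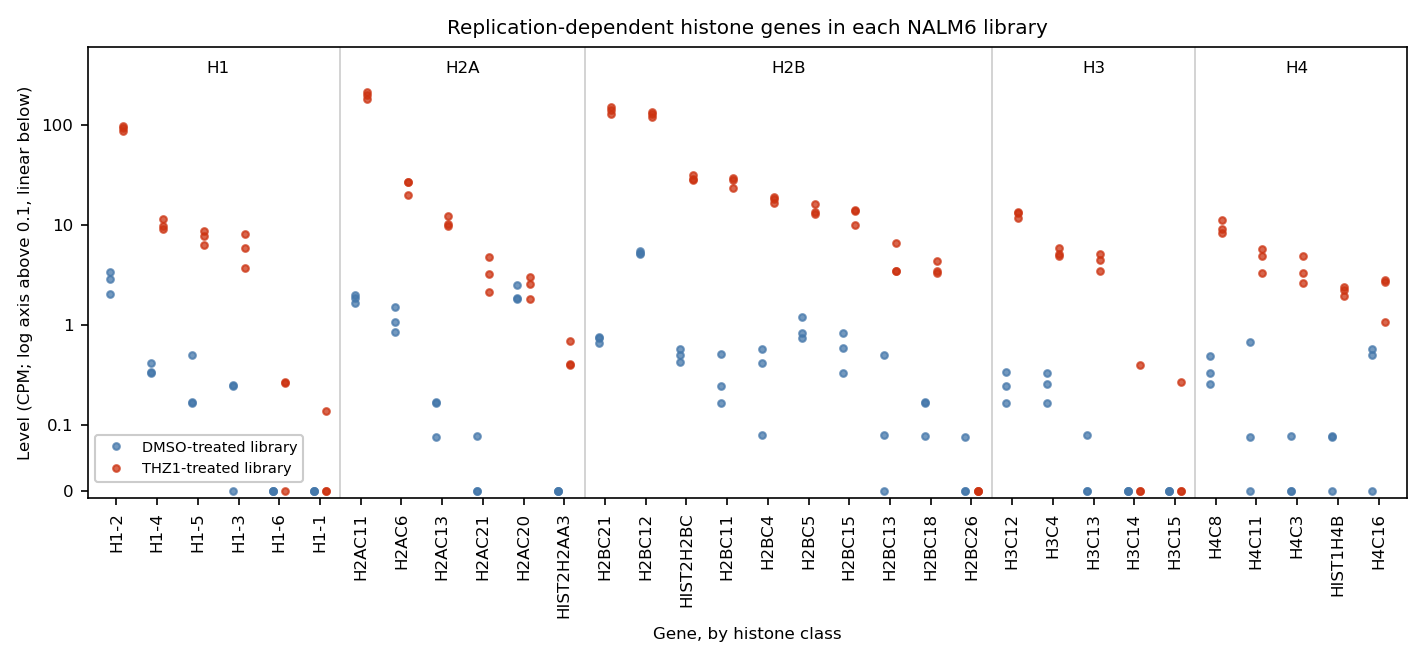
Level of each of the 32 members in each library, in CPM on an axis that is logarithmic above 0.1 and linear below, with genes on the horizontal axis grouped by histone class and ordered by their THZ1 mean. Each point is 1 library, blue for DMSO and red for THZ1. No member exceeded 10 CPM in any DMSO library, 10 members exceeded it in every THZ1 library, and H2AC20 is the member with both colours at the same height at about 2 CPM.

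Of the 32 members, 24 were called higher in THZ1-treated cells and 0 lower (edgeR quasi-likelihood test, Benjamini-Hochberg adjusted p below 0.05), 1 was tested and not called, and 7 had too few counts to be tested. Among all 16622 genes tested, 43.5% were higher and 41.1% lower. All 24 also passed a log2 fold change of 1.5, which 24.6% of all genes passed upward. Of the 25 members tested, 21 passed the low-count filter only through the THZ1 libraries, so they had to differ, and 4 (H1-2, H2AC11, H2AC20 and H2BC12) passed it in both treatments. Without the filter, 26 of 32 were higher, 0 lower and 6 not called, beside 32.2% of 30884 genes higher. Counted by libraries alone, 26 of 32 members had every THZ1 library above every DMSO library (43.4% of all genes tested), 0 had the reverse (41.3% of all genes tested) and 6 overlapped. Leaving out the pseudogene gave 23 of 31 called.

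The DMSO libraries bounded what could be seen of most members. In 13 members no DMSO library had over 3 counts, and in 5 every DMSO library was at 0. A total of 26 members were under 1 CPM in every DMSO library, and 6 were under 1 CPM in every THZ1 library. The log2 fold changes of the 24 called members ran from 3.93 in H2BC5 to 7.57 in H2BC21, against a median of 0.03 over all genes tested.

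A few genes gave most of the RNA. H2AC11, H2BC21, H2BC12 and H1-2 were the highest members by mean CPM in THZ1-treated cells. Together they made up 71.8%, 71.8% and 71.5% of the summed histone CPM in the THZ1 libraries, and 52.5%, 52.7% and 58.9% in the DMSO libraries. Because they were chosen by their THZ1 level, a larger share in the THZ1 libraries was favoured by the choice. Per kilobase of annotated exon, the THZ1 order was led by H2AC11 at 400 CPM per kb, H2BC12 at 258, H1-2 at 127, H2BC21 at 62.4 and HIST2H2BC at 50.8. In DMSO-treated cells it was led by H2BC12 at 10.6 CPM per kb, followed by H2AC20 at 4.14, H1-2 at 3.79 and H2AC11 at 3.71. By these means H2AC20 was thus the second member per length before treatment and number 22 after it. Its DMSO mean rests on 30, 22 and 22 counts and lies close to those of H1-2 and H2AC11. The order of these genes before treatment is therefore uncertain. The annotated length of H2BC21 includes a long stretch past the stem-loop, and whether reads fell there was not tested.

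The H1 genes encode linker histones. H1-2, the most abundant of them, had 35, 25 and 40 counts in the DMSO libraries and 714, 696 and 653 in the THZ1 libraries, or 2.77 ± 0.672 and 92.5 ± 4.68 CPM (SD, n = 3). Its log2 fold change was 5.06 (SE 0.13, adjusted p = 1.96e-25, edgeR). H1-4 rose from 4, 5 and 4 counts to 74, 66 and 86, and H1-5 from 6, 2 and 2 to 48, 63 and 58. The 4 H1 genes called lay close together, with log2 fold changes of 4.71 to 5.06. H1-1 and H1-6, the latter known as a testis gene, reached at most 2 counts in any library.

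In the H2A class the genes went apart. H2AC11 had 24, 20 and 22 counts in the DMSO libraries and 1374, 1538 and 1483 in the THZ1 libraries. Its mean rose from 1.83 ± 0.174 to 197 ± 16.1 CPM (SD, n = 3), the highest level of any member, with a log2 fold change of 6.75 (SE 0.12, adjusted p = 3.90e-29, edgeR). The libraries of the treatments were far apart in this gene, which had passed the low-count filter in both.

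Lower H2A genes followed the same direction. H2AC6 rose from 18, 13 and 10 counts to 150, 195 and 201, a log2 fold change of 4.42 (SE 0.21). H2AC13 rose from 2, 1 and 2 counts to 77, 70 and 92, a log2 fold change of 6.15 (SE 0.36). H2AC21 had 1, 0 and 0 counts in the DMSO libraries and 16, 34 and 24 in the THZ1 libraries, a ratio of 120 with an exact 95% counting interval of 20.9 to 4799. Such intervals cover counting error only. HIST2H2AA3 was at 0 in every DMSO library and had 3, 5 and 3 counts in the THZ1 libraries. These counts lay at or near 3, the count taken as the floor, so no bound on its fold is given.

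H2AC20 was the only member tested that was not called. It had 30, 22 and 22 counts in the DMSO libraries and 23, 13 and 19 in the THZ1 libraries. Its level was 2.48, 1.80 and 1.86 CPM, then 3.02, 1.80 and 2.54 CPM, and the treatments overlapped. The means were 2.05 ± 0.376 and 2.46 ± 0.617 CPM (SD, n = 3), with a log2 fold change of 0.27 (SE 0.31, adjusted p = 0.433, edgeR). In the deposited FPKM table its log2 values overlapped too, at 4.25, 3.83 and 3.91 against 4.37, 3.60 and 4.12. Of the 23 members in that table, 22 had every THZ1 library above every DMSO library, and H2AC20 was the exception. By counts, 43.4% of all genes tested had this separation, and the share over all genes of the FPKM table was not computed.

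The H2B genes held the largest share of the histone RNA. H2BC21 had 8, 9 and 9 counts in the DMSO libraries and 968, 1008 and 1116 in the THZ1 libraries, or 0.719 ± 0.0515 and 139 ± 10.98 CPM (SD, n = 3). Its log2 fold change of 7.57 (SE 0.15) was the highest of the members tested, and it passed the low-count filter only through the THZ1 libraries. H2BC12, the most abundant member in DMSO-treated cells, had 61, 63 and 65 counts there and 917, 960 and 967 after THZ1 treatment, a log2 fold change of 4.61 (SE 0.11). After treatment these H2B genes had similar CPM levels, 127 to 149 CPM for H2BC21 and 121 to 133 for H2BC12, from starting levels of 0.661 to 0.759 and 5.04 to 5.49 CPM.

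The other H2B genes called also had separate libraries. HIST2H2BC, the pseudogene, rose from 6, 7 and 5 counts to 217, 203 and 237, a log2 fold change of 5.85 (SE 0.22). H2BC5 rose from 10, 9 and 14 counts to 103, 116 and 96, the lowest log2 fold change of the called members at 3.93 (SE 0.24). H2BC18 rose from 1, 2 and 2 counts to 25, 31 and 26, a log2 fold change of 4.61 (SE 0.47). With limma on the deposited FPKM values its log2 fold change was 0.80 at a pseudocount of 1 and 1.38 at 0.1, under the threshold of 1.5. Only H2BC26 of this class showed no rise, with a single count in 1 DMSO library and none elsewhere.

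The H3 and H4 genes in the table were low. H3C12 had 2, 3 and 4 counts in the DMSO libraries and 89, 95 and 101 in the THZ1 libraries, a log2 fold change of 5.61 (SE 0.31). H3C4 rose from 4, 2 and 3 counts to 37, 37 and 44, a log2 fold change of 4.34 (SE 0.39). H3C13 had 0, 0 and 1 counts against 34, 37 and 26, a ratio of 157 with a counting interval of 27.6 to 6271. H3C14 and H3C15, whose sequences are almost the same, reached at most 3 counts in any library.

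Among the H4 genes, H4C8 rose from 4, 6 and 3 counts to 69, 81 and 62, a log2 fold change of 4.68 (SE 0.32). H4C11 had 0, 1 and 8 counts in the DMSO libraries and 25, 35 and 43 in the THZ1 libraries, with a log2 fold change of 4.14 (SE 0.49), which became 6.39 without DMSO replicate 3. H4C3 had 1, 0 and 0 counts against 25, 19 and 36, a ratio of 130 with a counting interval of 22.6 to 5183. H4C16, the HIST4 gene, had 6, 7 and 0 counts against 8, 20 and 20 and was not tested in the filtered table. Its libraries did not overlap in CPM, at 0.496, 0.574 and 0 against 1.05, 2.77 and 2.67.

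**Figure D2:**
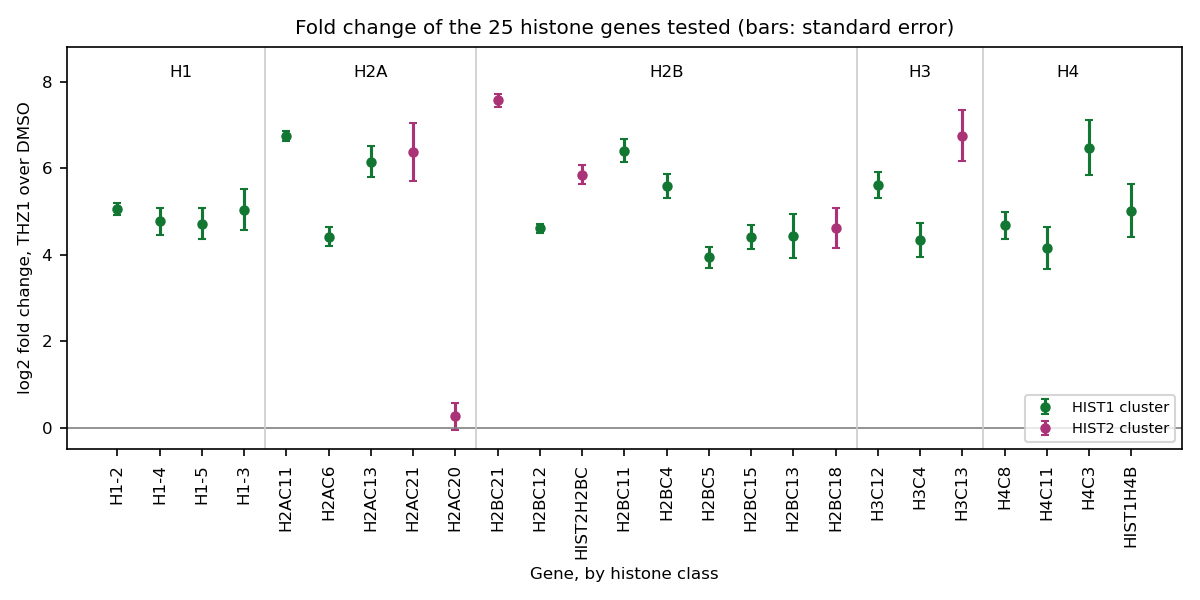
log2 fold change of THZ1 over DMSO on the vertical axis for the 25 members tested, grouped by class on the horizontal axis and coloured by cluster, with bars for the standard error. H2BC21 is highest at 7.57, and H2AC20 is alone near 0 at 0.27.

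By class, the sums rose 32.6-fold for H1, 46.2-fold for H2A, 41.9-fold for H2B, 43.0-fold for H3 and 21.0-fold for H4, with no overlap of treatments in any class. Most H3 and H4 genes were not among those analysed, so these class sums are not the RNA of the whole class. The H4 sum was 0.992, 1.23 and 0.928 CPM in the DMSO libraries and 18.9, 23.4 and 23.9 in the THZ1 libraries. As a share of the summed histone CPM, H4 was 4.92%, 6.76% and 4.76% before and 2.60%, 2.89% and 3.04% after treatment. This separation rested on H4C16, without which the H4 share was 2.52%, 3.72% and 4.76% against 2.46%, 2.55% and 2.71% and the treatments overlapped. The H1 share was lower in every THZ1 library, at a mean of 15.02% ± 0.686 against 18.5% ± 2.33 (SD, n = 3), although its nearest libraries differed by little, 15.8% and 15.7%. The shares of H2A, H2B and H3 overlapped between treatments. The shares were described and not tested.

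**Figure D3:**
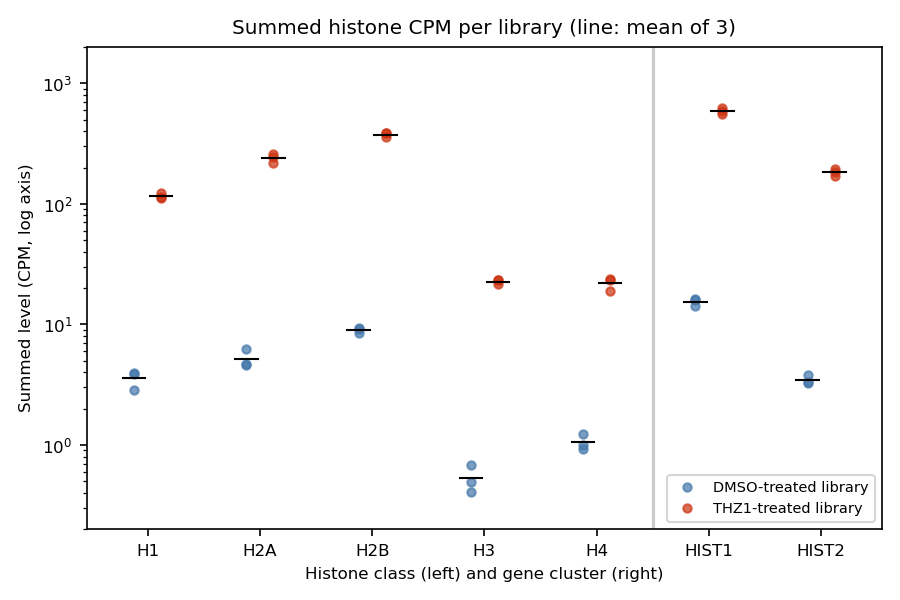
Summed CPM of the members of each histone class (left) and of the HIST1 and HIST2 clusters (right) on a log axis, with 1 point per library and a line at the mean of 3. In every class and in both clusters the red THZ1 points lie above the blue DMSO points, with the smallest rise, 21.0-fold, in H4.

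Both large clusters rose. The HIST1 sum was 15.9, 14.3 and 16.2 CPM in the DMSO libraries and 557, 623 and 591 in the THZ1 libraries, 38.2-fold. The HIST2 sum was 3.80, 3.28 and 3.29 CPM against 170, 184 and 194, 52.8-fold. The HIST2 share of the histone CPM was higher in every THZ1 library, at 23.6% ± 0.975 against 17.9% ± 0.988 (SD, n = 3), and the HIST1 share was lower, at 76.2% ± 1.01 against 80.1% ± 2.65. Of the 21 HIST1 members 19 were called higher, and of the 9 HIST2 members 5, beside 43.5% of all genes tested, and 16 of these 19 and all 5 passed the low-count filter only through the THZ1 libraries. H2AC20 made up 59.2% of the mean HIST2 sum in DMSO-treated cells and 1.34% in THZ1-treated cells, and H2BC21 made up 20.8% and 75.9%. The HIST2 fold and the rise of the HIST2 share thus rested largely on H2BC21, and the values without it were not computed.

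The divergent pairs show how far neighbours with a shared upstream stretch moved together. In the pair H2BC11 and H2AC11, printed above with its 247 bases, H2BC11 rose from 2, 3 and 6 counts to 225, 201 and 174, a log2 fold change of 6.41 (SE 0.26), beside 6.75 for H2AC11. In the pair H2BC4 and H2AC6, 218 bases apart, H2BC4 rose from 5, 7 and 1 counts to 126, 138 and 135, a log2 fold change of 5.59 (SE 0.28), beside 4.42 for H2AC6. In the pair H2BC13 and H2AC13, 243 bases apart, H2BC13 rose from 6, 0 and 1 counts to 26, 47 and 26, a log2 fold change of 4.43 (SE 0.51), beside 6.15 for H2AC13. In these 3 pairs both genes had every THZ1 library above every DMSO library, as had 43.4% of all genes tested, and 5 of the 6 genes, all but H2AC11, passed the low-count filter only through the THZ1 libraries.

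The pair H2BC21 and H2AC20, 235 bases apart, held the highest and the lowest log2 fold change of all members tested, 7.57 and 0.27. The ratio of H2BC21 to H2AC20 counts was 0.267, 0.409 and 0.409 in the DMSO libraries and 42.1, 77.5 and 58.7 in the THZ1 libraries, without normalization between libraries entering it. H2AC20 was thus the more abundant of the pair before treatment and H2BC21 after it. The pair had the octamer, CCAAT and TATAAA letters in its shared stretch, as did that of the pair H2BC11 and H2AC11. On its other side H2AC20 lies end to end with H2AC21, which rose.

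**Figure D4:**
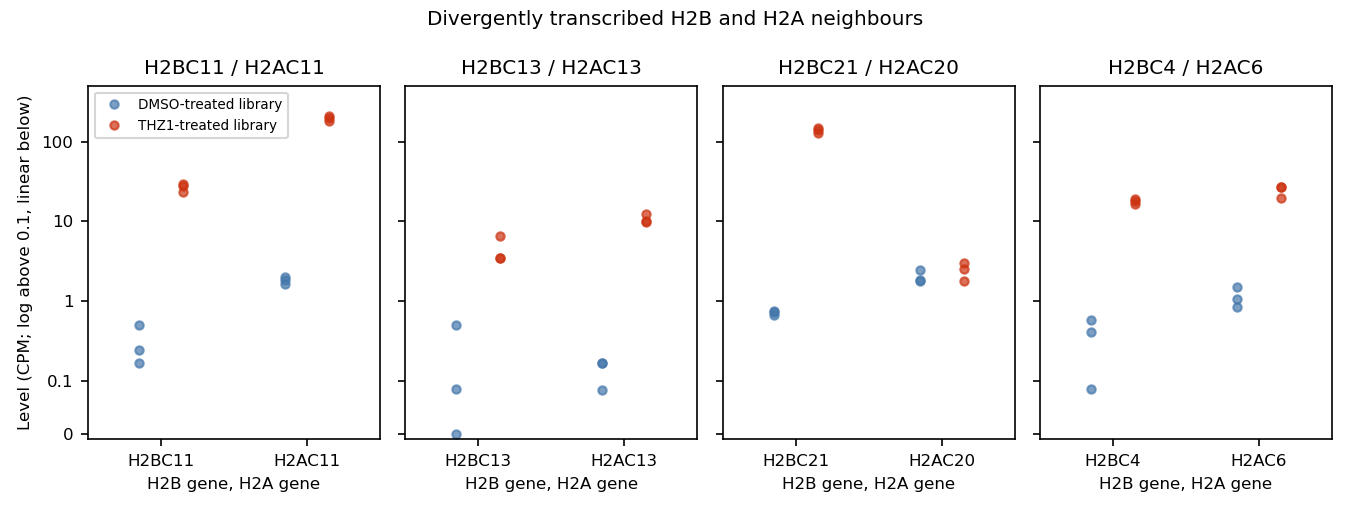
Level in CPM, on an axis logarithmic above 0.1 and linear below, of the H2B gene (left) and H2A gene (right) of 4 divergent pairs, with 1 point per library. In 3 pairs both genes rose with THZ1, and in the pair H2BC21 and H2AC20 only the H2B gene did, from 0.719 to 139 CPM on average.

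The annotated gene end was also compared, since reads past the stem-loop count for a gene only where its annotation reaches there. In 11 members the annotation went over 100 bases past the stem-loop, and in 20 it ended at the stem-loop. The former summed to 4.80, 5.49 and 4.39 CPM in the DMSO libraries and 235, 258 and 259 in the THZ1 libraries, 51.2-fold. The latter summed to 14.9, 12.1 and 14.7 CPM and 464, 524 and 498, 35.6-fold. The median log2 fold change of the members tested had the reverse order, 4.64 in the former and 5.03 in the latter. H2BC21 alone gave 139 of the mean 251 CPM of the former group in THZ1-treated cells, so that sum mostly reflects 1 gene. In both groups the treatments did not overlap, and 8 of 11 and 15 of 20 members were called higher, beside 43.5% of all genes tested. All 8 passed the low-count filter only through the THZ1 libraries, as did all but H1-2, H2AC11 and H2BC12 of the 15. The table holds counts per gene, so where in a gene the reads lay was not tested.

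Other genes of the same regions, and single-exon genes, give the setting. Between the first and last HIST1 member, 17 genes without a histone name were tested, of which 6 were higher, 8 lower and 3 not called, with log2 fold changes from −4.13 to 6.73 and a median of −0.28. The 11 protein-coding genes among them ran from −4.13 to 0.82. Among the others, the pseudogenes ENSG00000217275 and LARP1P1 had log2 fold changes of 6.73 (SE 0.59) and 4.83 (SE 0.66), and the long noncoding RNA ENSG00000272468 of 4.58 (SE 0.38), within the range of the called members. Outside the cluster histone names, 170 protein-coding genes tested had 1 exon in every annotated transcript. Of these 74.7% were higher, with a median log2 fold change of 1.62, against 36.2% and a median of −0.20 for all 11903 protein-coding genes without such a name. Not every member has this structure in the annotation, as H2BC4 and H2BC18 span far more bases than their exons hold. Whether gene structure has a part in the rise of the histone genes was not tested.

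Shared sequence and overlapping genes limit some members. In 6 of the 32, over 50% of the bases lay in exact runs of 50 bases or more that another gene also holds, namely H3C14, H3C15, HIST2H2BC, H3C4, H3C12 and HIST2H2AA3, and their counts are uncertain. Without these 6, 21 members were still called higher. The strand setting of the counting is not given in the sources used here, and H2AC21 overlaps BOLA1, H2BC4 overlaps HFE and H4C3, and H2BC18 overlaps FCGR1A on the opposite strand. On the same strand H2BC5 overlaps LARP1P1, H2BC4 overlaps H1-6 and H2BC18 overlaps ENSG00000233030. HFE had a log2 fold change of −0.28 (SE 0.33) and BOLA1 of 0.50 (SE 0.23), against 5.59 and 6.36 for H2BC4 and H2AC21, and LARP1P1 of 4.83 against 3.93 for H2BC5.

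Histone genes that are expressed outside S phase, the replication-independent variants, did not move as a group. Of 13 listed, 10 were tested, with 6 higher, 3 lower and 1 not called, beside 43.5% higher and 41.1% lower of all genes tested, and a median log2 fold change of 0.30. H2AZ1, the variant of active promoters, was at 645 CPM in DMSO-treated and 477 in THZ1-treated cells on average, a log2 fold change of −0.43 (SE 0.07). H3-3B, which encodes H3.3, was at 507 and 719 CPM, a log2 fold change of 0.51 (SE 0.07). The extremes were H2AJ at 5.48, from at most 1 count in a DMSO library, and MACROH2A1 at −0.84.

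H2AX, the DNA damage variant that alone among these held a stem-loop, was at 238, 205 and 267 CPM in the DMSO libraries and 685, 701 and 715 in the THZ1 libraries, a log2 fold change of 1.57 (SE 0.08). H1-10, with no stem-loop found, rose more, from 177 to 1210 CPM on average (log2 fold change 2.78, SE 0.08).

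The genes that act with histone supply in S phase were mostly lower. Beside the counts of these lists, 41.1% of all genes tested were lower and 43.5% higher. Of 24 S phase genes tested, 23 were lower and 1, the replication licensing factor CDT1, higher (log2 fold change 0.31, SE 0.07), with a median of −1.32. CDT1 was not called higher with library sizes alone or with limma on the FPKM values. CDC45, a part of the replicative helicase, was lowest at −2.65 (SE 0.10). Of 19 histone chaperones, 14 were lower, 4 higher and 1 not called, from −2.00 in NASP, which holds free H3 and H4, to 0.62 in DAXX, which deposits H3.3.

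Of 9 transcription and cell cycle factors known to act on histone genes, 6 were lower, 1 higher and 2 not called, beside 41.1% lower and 43.5% higher of all genes tested. NPAT, the coactivator of the histone clusters, was at 25.1, 28.4 and 23.5 CPM in the DMSO libraries and 7.76, 7.75 and 6.02 in the THZ1 libraries, a log2 fold change of −1.84 (SE 0.15, adjusted p = 4.91e-13, edgeR). E2F1 was lowest at −2.83 (SE 0.09), and YY1 was highest at 0.42 (SE 0.07). The mRNA of the coactivator and that of the histone genes thus differed in direction in the same libraries.

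Of 20 factors that process or degrade histone mRNAs, 12 were lower, 5 higher and 3 not called, beside 41.1% lower and 43.5% higher of all genes tested. SLBP was at 213, 198 and 225 CPM in the DMSO libraries and 134, 131 and 138 in the THZ1 libraries, a log2 fold change of −0.66 (SE 0.07, adjusted p = 5.24e-10, edgeR). NCBP1, of the cap-binding complex, was lowest at −1.67 (SE 0.09). SRRT, which encodes the cap-complex partner ARS2, was highest, from 325 to 3061 CPM on average, a log2 fold change of 3.23 (SE 0.08). LSM11, a part of the U7 particle that cuts histone pre-mRNAs, was at 14.8 and 6.96 CPM (log2 fold change −1.09, SE 0.17).

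**Figure D5:**
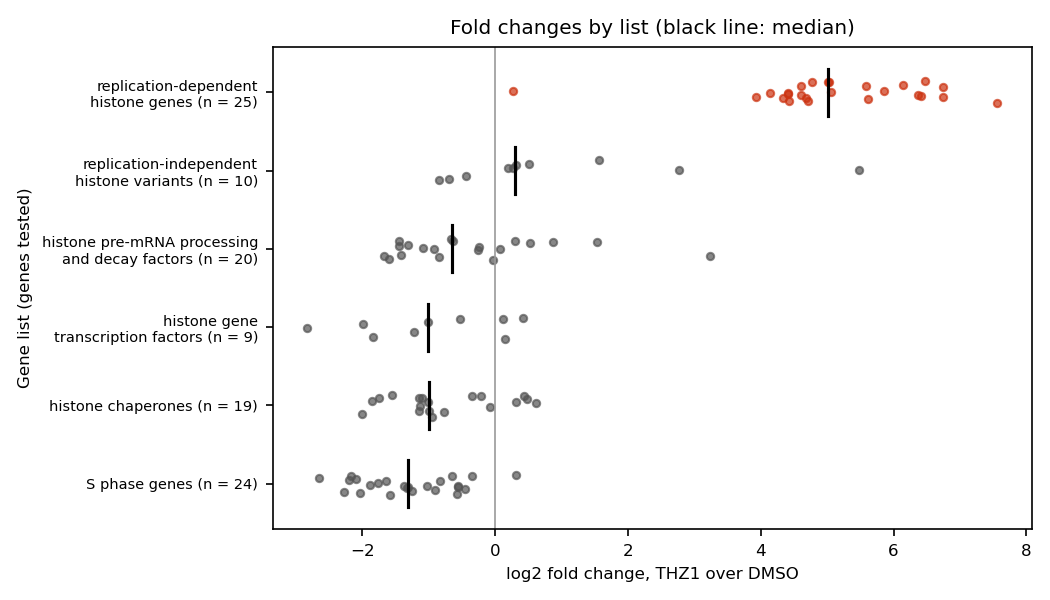
log2 fold change of THZ1 over DMSO on the horizontal axis for the genes tested of 6 lists on the vertical axis, with 1 point per gene, spread vertically for legibility, and a black line at each median. The 25 histone genes tested have a median of 5.02. All but H2AC20, at 0.27, lie to the right of nearly all S phase genes, chaperones and factors, whose medians are −1.32, −0.99, −1.01 and −0.65. Of the 25, 21 passed the low-count filter only through the THZ1 libraries, so these had to differ.

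The cell line label was checked by markers. Of 10 B-cell precursor markers, all were expressed, with a sum of 3569 to 3836 CPM in the DMSO libraries and 1666 to 1757 in the THZ1 libraries, and 1 was higher, 8 lower and 1 not called. The T cell markers listed summed to at most 0.969 CPM and the erythroid markers to at most 0.526 CPM in any library. Myeloid markers summed to 3.97 to 4.67 CPM in the DMSO and 17.0 to 18.0 in the THZ1 libraries, with 2 of 4 tested higher, 1 lower and 1 not called. Fibroblast markers summed to 11.3 to 12.9 and 18.5 to 20.6 CPM, with 1 of 2 tested higher and 1 lower. The part of these movements in the histone result was not tested. The TMM factors were 1.06 to 1.11 for the DMSO libraries and 0.915 to 0.920 for the THZ1 libraries.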

How the data were processed

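The measurements were RNA-SEQ counts of NALM6 cells, with 3 libraries from DMSO-treated cells and 3 from cells treated with 500 nM THZ1 for 24 h. The authors filtered the reads (cutadapt, per the submitters' processing notes), mapped them to GRCh37 with STAR and deposited raw counts per gene from HTSeq. The annotation, strand setting and RNA selection are not given in the sources used here. The authors also deposited log2 FPKM values from RSEM, read here as log2(FPKM + 1), and their own log2 fold changes and p-values, which were not used.

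Genes were named from GENCODE 44 (lifted to GRCh37) and the deposited table. The low-count filter was filterByExpr of edgeR 4.0.16 (R 4.3.3) with a minimum count of 10 in the libraries of a treatment and at least 15 in total. TMM factors scaled the libraries, and the two-sided quasi-likelihood test of edgeR was run on the 16622 genes that passed, with p-values adjusted by Benjamini-Hochberg across them. In simulated counts of 16095 genes with a fixed dispersion, 192 of 192 changed genes and 10 of 15903 unchanged genes were called. Far fewer genes changed there than in the data, where 43.5% were called higher and 41.1% lower. The simulation therefore checks that the code runs as intended and does not give the error rate of this comparison. Alternatives were other scaling factors, DESeq2 1.42.0, other filters, a replicate block, each library left out, and limma 3.58.1 on the FPKM values. Shared sequence was found as exact runs of at least 50 bases, and ratios to groups with 1 to 3 counts carry exact binomial intervals.

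The genes and lists were chosen with earlier results of these data known. The genes named were the 3 most abundant and the highest and lowest in fold change of each class, all tested HIST2 members, and the extremes of each list with SLBP, NPAT, H2AZ1 and H3-3B. Another gene that the rule takes is not reported here. H1-1, H1-6, H2BC4, H2BC11, H2BC13, H2BC26, H3C14, H3C15, H4C16, HIST2H2AA3, H2AX, H1-10, LSM11, HFE, BOLA1, LARP1P1 and the identifiers beside it were named after their values were seen. The comparison with single-exon genes, with neighbouring genes and by annotated end, and the counts without members that share sequence or without H4C16, were added after seeing the data.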

Additional observations from a re-analysis of the deposited data

How the results depend on the processing

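No result changed direction under any alternative run, and the 19 members named by rule kept their direction and their side of the adjusted p of 0.05 in all 269 values computed for them. H2BC18 fell under a log2 fold change of 1.5 with limma, at 0.80 and 1.38, and 14 and 13 of the 17 called members named by rule and present in the FPKM table were lower by over 1.5 times there at a pseudocount of 1 and 0.1. Leaving out 1 DMSO library moved 5 of them by over 1.5 times, H1-5 to 5.38, H2AC21 to 7.94 and H4C3 to 8.05 without replicate 1, and H3C13 to 8.34 and H4C11 to 6.39 without replicate 3. With at least 10 counts in every library, 4 members were called higher in place of 24, since only 5 members could be tested. The replicate numbers did not pair the libraries, with correlations of −0.004, 0.00097 and 0.0206 between same-numbered libraries, and with a replicate block 24 members were called higher and the median log2 fold change of the members was 5.01. The median of the members, 5.02, was 5.20 with upper quartile factors, 4.79 with library sizes alone, 4.74 with at least 10 counts in every library, 4.61 without a filter, and 3.54 and 4.43 with limma on the deposited FPKM values at a pseudocount of 1 and 0.1. Leaving out 1 library gave medians of 4.72 to 5.34. The log2 fold of the summed CPM, 5.33, was 5.52 with upper quartile factors and 5.08 with library sizes alone. These factors moved the median of all genes by 0.19 and −0.25. Transcription factors called higher numbered 3 with upper quartile factors and 2 with at least 10 counts in every library, against 1. Variants called higher numbered 3 with limma at either pseudocount, against 6. The S phase gene called higher, CDT1, was not called higher with library sizes alone or with limma, which gave 0. Among 436 values for single classes, clusters and genes, a further 59, all of classes and clusters, moved beyond the spread between libraries without a change of direction. The 269 values of members named by rule were judged by direction and side of the adjusted p only, and not by this spread. Single members could thus move by more than their SE, as H4C11 did, from 4.14 (SE 0.49) to 6.39. The median log2 fold change of the HIST2 cluster, 6.11, ran from 0.40 to 6.41 over the alternatives. With under 4 counts in every DMSO library of 13 members, depth limits their fold changes.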

Other observations

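Pseudogenes of the histone clusters with a suffix P in their symbol were outside the naming rule, and 9 of them had counts. In all 9 every THZ1 library was above every DMSO library in CPM, beside 43.4% of all genes tested. Several of them, such as H4C10P, were at or near 0 counts in the DMSO libraries. H2BC20P had 94, 121 and 83 counts in the DMSO libraries and 2722, 2700 and 2575 in the THZ1 libraries, or 8.23 ± 1.51 and 359 ± 14.8 CPM (SD, n = 3), above the level of any member in both treatments. H2BC19P rose from 10, 2 and 4 counts to 93, 93 and 115. H4C10P was at 0 in every DMSO library and had 35, 19 and 16 counts in the THZ1 libraries. Pseudogenes can take reads from near-identical genes, and the source of these counts was not tested.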
